A study of Homo sapiens with 8 samples.

Results

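Collagens, laminins and integrins build the extracellular matrix and attach cells to it, and their 82 genes were examined in human pluripotent stem cells that lack a subunit of the kinesin-2 motor. The genes were chosen by name alone: every collagen chain, laminin chain and integrin subunit in the table, which gave 44 collagen, 12 laminin and 26 integrin genes among 58302 entries. The 8 RNA-seq libraries came from undifferentiated, untreated cells of 2 lines. WTC11 is an induced pluripotent stem cell line and gave 2 control and 3 KIF3B knockout libraries, from guide RNAs numbered 1 and 2. Control 1 and knockouts 1 and 2 belong to guide 1, and control 2 and knockout 3 to guide 2. WA09 is an embryonic stem cell line and gave 2 control libraries and 1 KIF3A knockout library, all under guide 1. All cells were kept on mTeSR1 medium without feeder cells, and each library was amplified from 100 to 1000 cells. The series speaks of several clones. Each library carries its own title, but the labels do not say that a title names a clone. A p-value here thus speaks only of variation among these libraries, some of which could be technical. Values of the lone KIF3A knockout library have no replicate.

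Collagens are trimeric proteins: fibril-forming types give tissue its tensile strength, while type IV forms the sheet of the basement membrane. Laminins are cross-shaped trimers of an alpha, a beta and a gamma chain, and they polymerise into the other sheet of the basement membrane. Integrins are pairs of an alpha and a beta subunit that bind these proteins outside the cell and link them to actin inside it. Pluripotent stem cells in culture depend on such contacts, and laminin is a common coating for growing them.

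The table held 2161890 to 2875163 counts per library. The 82 genes took 0.235% and 0.257% of the counts in the WTC11 controls, 0.290% to 0.392% in the KIF3B knockouts, 0.294% and 0.322% in the WA09 controls and 0.2601% in the KIF3A knockout. ITGAD and ITGA8 had no count in any library, 12 further genes had 1 to 9 counts in all, and 61 passed the low-count filter of the comparisons between groups. KIF3B RNA stood at 32.5 and 26.7 CPM (counts per 1000000, scaled between libraries) in the WTC11 controls and 49.3, 37.4 and 38.5 CPM in the KIF3B knockouts. KIF3A RNA stood at 68.3 and 61.8 CPM in WA09 controls and 33.1 CPM in their KIF3A knockout. The level of RNA does not check the KIF3B labels, since the position of the edit was not used here. All 15 pluripotency markers were detected in all 8 libraries, with POU5F1 at 177 to 249 CPM, while CDX2, SOX17, SOX1 and the fibroblast genes LUM and DCN were at 0 throughout. In bulk RNA, fewer cells of a type and less RNA per cell cannot be told apart.

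The second KIF3B knockout library stood apart. It had the highest level of the 8 libraries for 23 of the 61 genes tested (37.7%), against 14.3% of all 14216 genes, while the first WTC11 control was the lowest for 22 of them (36.1%, against 19.2% of all genes). In that knockout library the 15 endoderm markers summed to 114 CPM against 25.9 to 45.8 CPM in the other 7 libraries. CER1, an antagonist secreted by endoderm, gave 64.3 CPM of this, SOX17 and HNF4A were at 0 in all libraries, and 11 of the 15 stayed under 5 CPM everywhere. The 15 trophectoderm and amnion markers summed to 99.0 CPM there, to 30.6 and 81.6 CPM in the other KIF3B knockouts, to 24.9 and 49.0 CPM in the WTC11 controls and to 58.7 CPM or slightly more in each WA09 library. CDX2, TFAP2A, HAND1, CGB5 and ELF5 were at 0 in all libraries. The 15 fibroblast and mesenchymal markers, of which LUM, DCN, PRRX1 and FAP were at 0 throughout, summed to 561 and 633 CPM in the WTC11 controls, 510, 603 and 439 CPM in the KIF3B knockouts and 582 to 602 CPM in WA09 libraries. THY1 gave most of each sum, at 297.2 to 441.5 CPM over the 8 libraries. TAGLN, the next in level, gave 203 CPM in the second KIF3B knockout and 71.4 to 123 CPM in the other 7 libraries. S100A4 was lowest in that knockout library, at 9.12 CPM. Neuroectoderm markers summed to 178 to 285 CPM and mesoderm markers to 113 to 199 CPM over the 8 libraries. KDR gave most of each mesoderm sum, at 94.4 to 180 CPM. The part of these cells in the results below was not tested, and values without the second KIF3B knockout library are given beside the results that differ most.

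Promoters of the chains that the comparisons turn on are shown first, since basement membrane genes lie in characteristic arrangements. COL4A1 and COL4A2, the chains of the common type IV network, start 127 bases apart on opposite strands of chromosome 13 in RefSeq (GRCh38.p14). COL4A6 and COL4A5 on chromosome X start 380 bases apart, and COL4A4 and COL4A3 on chromosome 2 start 419 bases apart. The stretches below come from the 250 bases before a RefSeq start, without bases that GENCODE release 29 counts as exon. They belong to the beta chains LAMB1 and LAMB2, the gamma chain LAMC1 and the type IV chain COL4A5, whose levels in KIF3B knockouts are described below. Capitals mark CCGCCC, the letters bound by SP and KLF factors, and CCAAT, on either strand.
LAMB1, chr7:108003256-108003411, minus strand: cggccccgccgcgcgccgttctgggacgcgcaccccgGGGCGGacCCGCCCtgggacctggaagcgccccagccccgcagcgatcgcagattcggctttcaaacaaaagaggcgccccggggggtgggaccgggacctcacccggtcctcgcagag
LAMB2, chr3:49133119-49133300, minus strand: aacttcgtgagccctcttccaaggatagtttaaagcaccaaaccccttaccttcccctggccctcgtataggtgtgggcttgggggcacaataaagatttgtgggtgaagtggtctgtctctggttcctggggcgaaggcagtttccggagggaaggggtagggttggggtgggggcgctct
LAMC1, chr1:183023170-183023419, plus strand: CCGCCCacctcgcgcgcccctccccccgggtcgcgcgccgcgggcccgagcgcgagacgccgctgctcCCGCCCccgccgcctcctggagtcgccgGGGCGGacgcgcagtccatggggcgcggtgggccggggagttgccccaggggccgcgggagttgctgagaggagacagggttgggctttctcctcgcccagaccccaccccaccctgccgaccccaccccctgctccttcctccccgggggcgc
COL4A5, chrX:108439588-108439837, plus strand: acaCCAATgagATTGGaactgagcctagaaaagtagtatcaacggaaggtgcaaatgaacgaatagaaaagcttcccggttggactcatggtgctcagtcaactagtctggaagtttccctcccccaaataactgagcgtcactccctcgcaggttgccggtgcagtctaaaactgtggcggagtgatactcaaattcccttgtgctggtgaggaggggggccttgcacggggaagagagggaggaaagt

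The stretch before LAMC1 held CCGCCC 3 times and was 79.6% G and C, and that before LAMB1 held it 2 times at 75.0%. The stretch of 182 bases shown before LAMB2 held neither motif at 56.6%, but the full 250 bases before its start did hold CCGCCC. The stretch before COL4A5, between the starts of COL4A6 and COL4A5, held CCAAT 2 times at 51.2%. RefSeq windows were present for 58 of the 82 genes, 77 windows in all. Over the full 250 bases before the start, CCGCCC occurred in 41 of the 77 windows (53.2%) and in 42.6% of all 35116 windows. CCAAT occurred in 17 (22.1%, against 32.0% of all), TATAAA in 10 (13.0%, against 10.7%) and CATTCC, the core letters of TEAD sites, in 7 (9.09%, against 11.9%), all counted on both strands. These letter matches are a description of the windows and not evidence of binding.

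Integrin subunits gave the highest levels per length of transcript in the set. Averaged over the 8 libraries, ITGB5 gave 103 CPM per kilobase of its longest transcript and ITGB1 93.2, followed by COL26A1 at 42.7, ITGA6 at 33.1, COL1A2 at 27.3, COL9A3 at 24.3, COL6A2 at 21.9, LAMC1 at 21.4 and COL4A2 at 20.6. Of the 82 genes, 35 had a mean of at least 10 CPM, 19 of at least 50 CPM and 21 of less than 1 CPM. The 19 genes of at least 50 CPM were the laminin chains LAMA1, LAMA5, LAMB1, LAMB2 and LAMC1, the collagen chains COL1A2, COL4A1, COL4A2, COL6A1, COL6A2, COL9A3, COL18A1 and COL26A1, and the integrin subunits ITGA5, ITGA6, ITGAE, ITGAV, ITGB1 and ITGB5. Among fibrillar chains COL1A2 stood out, at 27.3 CPM per kilobase against 6.57 for COL1A1, its partner in type I collagen. COL3A1, the fibrillar chain of skin and vessels, had 1 count in all 8 libraries. LAMA3 and LAMB3, whose chains belong to the laminin of epithelial anchoring, had means of 4.28 and 0.749 CPM.

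The first comparison asked how loss of KIF3B changes these genes in WTC11. All 10 laminin genes tested had higher fitted levels in the 3 KIF3B knockouts than in the 2 controls. Their median log2 fold change was 0.77, against 0.33 for the 35 collagens tested, 0.30 for the 16 integrins tested and 0.03 for all 14216 genes. None passed edgeR's quasi-likelihood test after Benjamini-Hochberg adjustment: 0 of the 61 genes were called, as were 0.0% of all genes. At an unadjusted p under 0.05, 13 of the 61 were higher and 0 lower, where all genes gave 8.98% higher and 7.67% lower. Without the second KIF3B knockout library these counts were 7 higher and 1 lower (1073 and 891 of 14181 genes), and with the trend against transcript length removed 6 higher and 0 lower (835 and 872 of 14216 genes). With DESeq2, 2 were called, LAMB1 and LAMB2, beside 1.73% of all genes, and with limma voom 0, beside 0.0% of all genes. With edgeR and no low-count filter 8 were called, beside 2.56% of the 26388 genes in that fit. Here and below, that fit also took in members with low counts, so the 8 were not drawn from the 61 alone.

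LAMB1 (ENSG00000091136, chromosome 7, 107923799 to 108003255) encodes the beta chain of the most widespread laminins. It measured 46.8 and 48.0 CPM in the WTC11 controls, 69.5, 125 and 119 CPM in the KIF3B knockouts, 69.9 and 62.9 CPM in WA09 controls and 86.9 CPM in their KIF3A knockout. Every knockout library lay above both controls of its own line, and the WTC11 controls were the lowest of all 8. The log2 fold change in KIF3B knockouts was 1.14 ± 0.27 (SE), with an adjusted p of 0.17 by edgeR and 0.018 by DESeq2, and it was 0.99 without the second KIF3B knockout library. LAMB2, the beta chain of muscle and kidney laminins (ENSG00000172037, chromosome 3, 49121114 to 49133118), measured 67.8 and 45.3 CPM in the WTC11 controls, 93.2, 120 and 121 CPM in the KIF3B knockouts, 87.1 and 78.8 CPM in WA09 controls and 117 CPM in their KIF3A knockout. Its groups did not overlap in either line. The log2 fold change in KIF3B knockouts was 0.98 ± 0.23, with an adjusted p of 0.17 by edgeR and 0.024 by DESeq2.

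LAMA1 encodes the alpha chain of the earliest embryonic laminin. It measured 66.5 and 57.1 CPM in the WTC11 controls, 89.4, 97.3 and 135 CPM in the KIF3B knockouts, 54.5 and 49.6 CPM in WA09 controls and 73.7 CPM in their KIF3A knockout. Knockouts lay above controls in both lines here too, with a log2 fold change of 0.79 ± 0.23 in KIF3B knockouts (edgeR adjusted p = 0.18). LAMA5, the alpha chain of the laminins made by pluripotent cells and many epithelia, measured 69.2 and 35.8 CPM in the WTC11 controls, 57.3, 114 and 76.5 CPM in the KIF3B knockouts, 34.1 and 40.7 CPM in WA09 controls and 37.1 CPM in their KIF3A knockout. Its groups overlapped in both lines, and its log2 fold change of 0.65 ± 0.36 in KIF3B knockouts was 0.35 without the second one.

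LAMC1, the gamma chain that most laminins share, was the most abundant laminin gene. It measured 150 and 149 CPM in the WTC11 controls, 154, 252 and 205 CPM in the KIF3B knockouts, 215 and 121 CPM in WA09 controls and 102 CPM in their KIF3A knockout. The KIF3B knockouts lay above their controls, the first only slightly, while the KIF3A knockout lay below both of its own. LAMC3, a gamma chain of more restricted laminins, measured 13.8 and 9.52 CPM in the WTC11 controls, 25.2, 31.3 and 33.1 CPM in the KIF3B knockouts, 54.9 and 15.2 CPM in WA09 controls and 29.1 CPM in their KIF3A knockout. Its log2 fold change in KIF3B knockouts was 1.36 ± 0.53 (edgeR adjusted p = 0.25) and 1.32 without the second library.

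**Figure D1:**
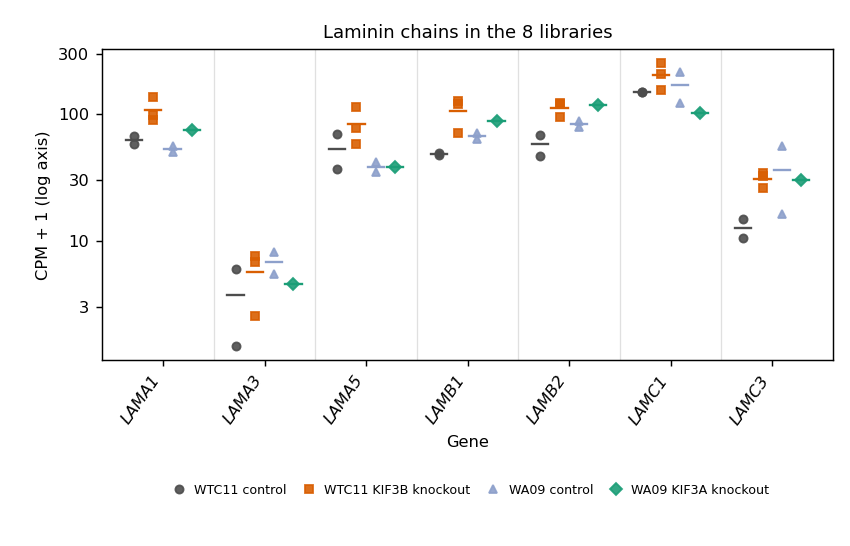
Levels of 7 laminin genes in each library, as CPM + 1 on a log axis, where each point is 1 library and each short line the mean of a group. LAMA1, LAMB1 and LAMB2 lie higher in knockout than in control libraries of both lines, while LAMC1 lies lower in the KIF3A knockout (102 CPM) than in both WA09 controls.

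Among network-forming collagens, the type IV chains COL4A1, COL4A2 and COL4A5 were higher in all 3 KIF3B knockouts than in both controls. COL4A1 (chromosome 13, 110148963 to 110307233) measured 73.8 and 89.7 CPM in the WTC11 controls, 99.3, 122 and 105 CPM in the KIF3B knockouts, 104 and 105 CPM in WA09 controls and 71.4 CPM in their KIF3A knockout. Its neighbour COL4A2 measured 93.5 and 119 CPM, then 125, 175 and 153 CPM, then 181 and 121 CPM, and 103 CPM in the same order of groups. In both genes the KIF3B knockouts lay above and the KIF3A knockout below the controls of its line. Log2 fold changes in KIF3B knockouts were 0.41 ± 0.18 for COL4A1 and 0.50 ± 0.22 for COL4A2 (edgeR adjusted p = 0.29 for both). The ratio of COL4A1 to COL4A2 counts, which needs no scaling between libraries, ranged from 0.576 to 0.868 over the 8 libraries, with both ends in WA09 controls.

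COL4A5, the chain altered in X-linked Alport syndrome (ENSG00000188153, chromosome X, 108439844 to 108697545), varied more. It measured 17.9 and 9.52 CPM in the WTC11 controls, 21.8, 54.3 and 41.3 CPM in the KIF3B knockouts, 39.2 and 40.3 CPM in WA09 controls and 32.2 CPM in their KIF3A knockout. The WTC11 controls were the lowest of the 8 libraries, with a log2 fold change of 1.51 ± 0.45 in KIF3B knockouts (edgeR adjusted p = 0.18) and 1.20 without the second one. COL4A6, transcribed away from COL4A5 on the other strand, measured 23.8 and 8.16 CPM in the WTC11 controls and 12.2, 14.3 and 19.0 CPM in the KIF3B knockouts, which overlapped. The ratio of COL4A5 to COL4A6 counts was 0.750 and 1.17 in the WTC11 controls, 1.78, 3.79 and 2.17 in the KIF3B knockouts, 4.35 and 3.03 in WA09 controls and 2.43 in their KIF3A knockout, with no overlap in either line.

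Of the 8 fibril-forming chains tested, 6 had higher and 2 lower fitted levels in KIF3B knockouts, with a median log2 fold change of 0.55. Without the second knockout library 5 were higher and 3 lower, with a median of 0.23. COL1A2 measured 118 and 135 CPM in the WTC11 controls, 165, 312 and 159 CPM in the KIF3B knockouts, 150 and 144 CPM in WA09 controls and 127 CPM in their KIF3A knockout. COL1A1 measured 21.1 and 21.3 CPM, then 37.1, 124 and 34.1 CPM, then 34.1 and 47.4 CPM, and 34.4 CPM in the same order. Both chains of type I collagen were thus higher in every KIF3B knockout than in its controls, and the second knockout library exceeded all others. The log2 fold change of COL1A1 was 1.61 ± 0.56 (edgeR adjusted p = 0.21) with all libraries and 0.75 without the second knockout. For COL1A2 the values were 0.74 ± 0.27 (adjusted p = 0.23) and 0.36. COL2A1, the main fibrillar collagen of cartilage, measured 6.42 and 0.0 CPM in the WTC11 controls and 11.1, 7.39 and 27.0 CPM in the KIF3B knockouts, beside 14.1, 8.14 and 13.2 CPM in the WA09 controls and the KIF3A knockout, with a log2 fold change of 2.23 ± 1.04 (adjusted p = 0.32) that rests on few counts.

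The other abundant collagens showed smaller values. COL6A1 and COL6A2 encode chains of the beaded filaments of type VI: COL6A1 measured 43.1 and 58.5 CPM in the WTC11 controls and 66.1, 74.7 and 60.01 CPM in the KIF3B knockouts, which did not overlap, and 50.6, 42.9 and 58.7 CPM in the WA09 controls and the KIF3A knockout. COL6A2 measured 73.3 and 54.8 CPM in the WTC11 controls, 71.8, 63.4 and 62.5 CPM in the KIF3B knockouts, 106 and 98.4 CPM in WA09 controls and 75.4 CPM in their KIF3A knockout, so that only the WA09 groups were apart. COL9A3, a chain carried on the surface of cartilage fibrils, measured 31.6 and 59.4 CPM in the WTC11 controls, 60.3, 67.8 and 58.9 CPM in the KIF3B knockouts, 63.2 and 82.9 CPM in WA09 controls and 61.7 CPM in their KIF3A knockout, with overlap in WTC11. COL18A1, the basement membrane collagen that endostatin is cut from, measured 71.0 and 56.7 CPM in the WTC11 controls, 74.5, 107 and 60.01 CPM in the KIF3B knockouts, 113 and 64.4 CPM in WA09 controls and 54.7 CPM in their KIF3A knockout. Of its exon bases, 16.4% overlap SLC19A1 on the other strand, so their reads may be mixed. COL26A1 measured 155 and 123 CPM in the WTC11 controls, 139, 103 and 132 CPM in the KIF3B knockouts, 111 and 158 CPM in WA09 controls and 115 CPM in their KIF3A knockout, and both pairs of groups overlapped. The log2 fold changes in KIF3B knockouts of COL6A1, COL6A2, COL9A3, COL18A1 and COL26A1 lay between -0.15 and 0.45, and that of COL18A1 was 0.33 with and 0.07 without the second knockout library.

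**Figure D2:**
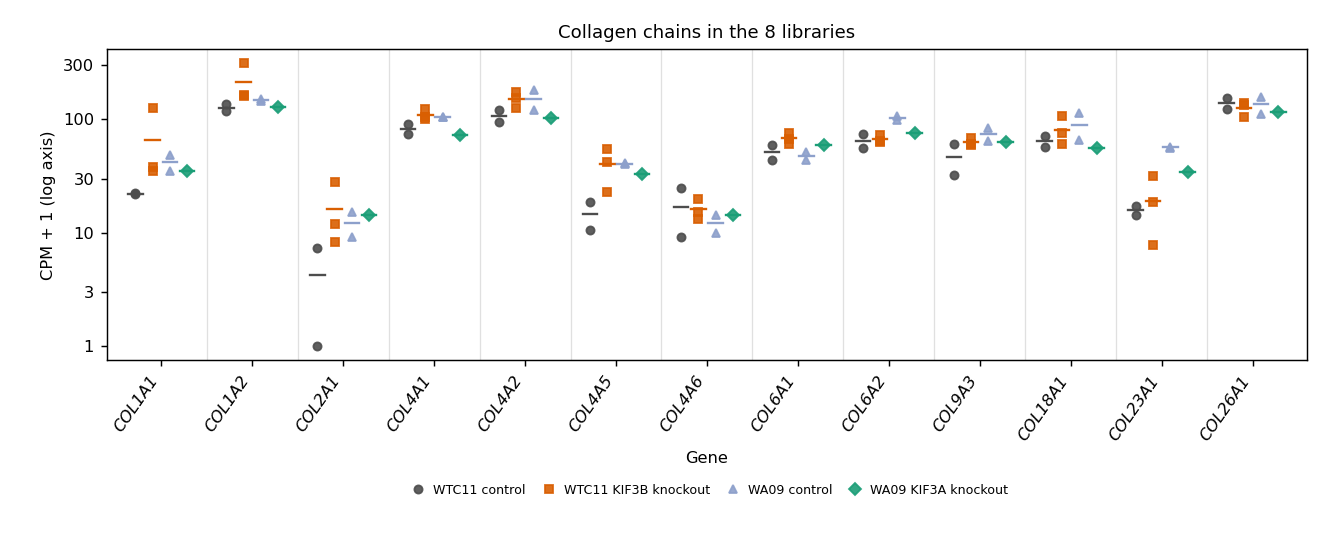
Levels of 13 collagen genes in each library, as CPM + 1 on a log axis, with 1 point per library and a short line at each group's mean. COL1A1 shows the second KIF3B knockout at 124 CPM above all other libraries, and COL23A1 shows the WA09 libraries (33.5 to 56.6 CPM) above all WTC11 libraries.

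Among integrins, ITGAV and ITGB5 together form a receptor for vitronectin. ITGAV measured 48.6 and 15.9 CPM in the WTC11 controls, 57.3, 123 and 65.4 CPM in the KIF3B knockouts, 77.3 and 43.3 CPM in WA09 controls and 59.5 CPM in their KIF3A knockout. The KIF3B knockouts lay above both controls, with a log2 fold change of 1.34 ± 0.50 (edgeR adjusted p = 0.23) and 0.93 without the second one. Over all fits that left out a single library, controls included, this value ran from 0.76 to 2.36. ITGB5, the most abundant gene of the set (ENSG00000082781, chromosome 3, 124761948 to 124901418), measured 304 and 435 CPM in the WTC11 controls, 518, 660 and 402 CPM in the KIF3B knockouts, 479 and 430 CPM in WA09 controls and 382 CPM in their KIF3A knockout. Its WTC11 groups overlapped, with 0.51 ± 0.20 as log2 fold change (edgeR adjusted p = 0.25) and 0.32 without the second knockout library.

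ITGA6 and ITGB1 form the main laminin receptor of these cells. ITGA6 measured 169 and 187 CPM in the WTC11 controls, 228, 201 and 281 CPM in the KIF3B knockouts, 142 and 165 CPM in WA09 controls and 113 CPM in their KIF3A knockout. The KIF3B knockouts were the highest and the KIF3A knockout the lowest of the 8 libraries. ITGB1, the beta subunit shared by most matrix receptors, measured 317 and 382 CPM in the WTC11 controls, 291, 451 and 256 CPM in the KIF3B knockouts, 441 and 352 CPM in WA09 controls and 331 CPM in their KIF3A knockout. Its WTC11 groups overlapped, with a log2 fold change of -0.07 ± 0.22. ITGA5, the fibronectin receptor's alpha subunit, overlapped too, at 37.6 and 60.7 CPM in the WTC11 controls and 58.4, 89.9 and 44.2 CPM in the KIF3B knockouts, with 57.3 and 49.96 CPM in WA09 controls and 41.9 CPM in their KIF3A knockout. ITGAE, known as a receptor subunit of lymphocytes in epithelia, was the only abundant member with all KIF3B knockouts below both controls, at 56.9, 48.7 and 47.8 CPM against 74.7 and 57.6 CPM, and it measured 58.5, 75.5 and 67.9 CPM in the WA09 controls and the KIF3A knockout. Its log2 fold change was -0.37 ± 0.23, and 6.41% of its exon bases overlap HASPIN on the other strand.

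**Figure D3:**
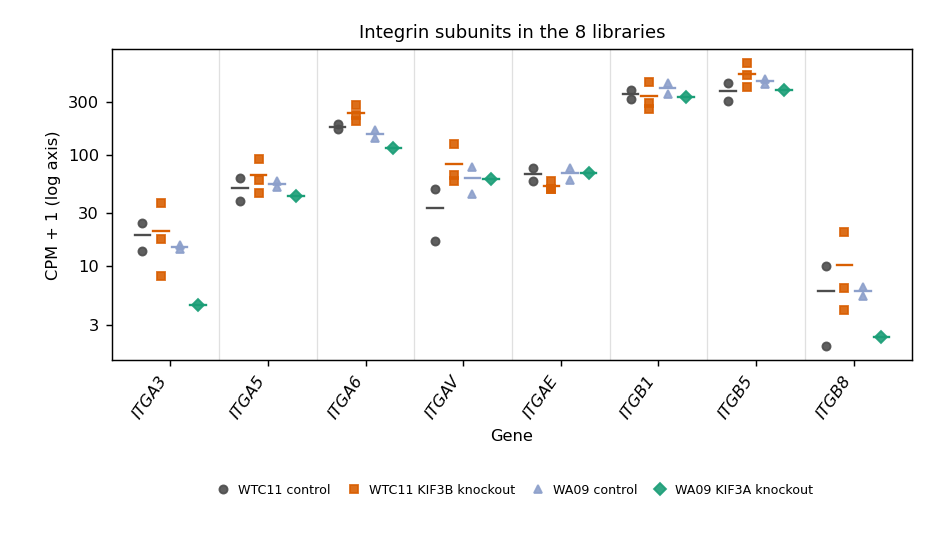
Levels of 8 integrin genes in each library, as CPM + 1 on a log axis, with 1 point per library and a short line at each group's mean. ITGA6 shows the KIF3B knockouts (201 to 281 CPM) above and the KIF3A knockout (113 CPM) below every control, while the groups of ITGB1 overlap in WTC11.

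Counted over the 61 genes tested, all 3 KIF3B knockouts lay above both controls for 15, where 16.5% of all genes did so, and below both for 2, where 18.0% of all genes did. The 15 held 6 laminin genes (LAMA1, LAMA2, LAMB1, LAMB2, LAMC1 and LAMC3), 7 collagens (COL1A1, COL1A2, COL2A1, COL4A1, COL4A2, COL4A5 and COL6A1) and the integrins ITGA6 and ITGAV, while the 2 were COL25A1 and ITGAE. Members reached the test by passing a filter that knockout libraries can satisfy alone, so these counts describe the genes tested and not the family. The remaining members were of low level. Among fibril-associated collagens, COL14A1, COL9A1 and COL9A2 had means of 29.6, 21.6 and 10.4 CPM. Among further integrin alpha subunits, ITGA1, ITGA3, ITGA9 and ITGA2B had means of 10.2 to 21.2 CPM, and ITGB8 and ITGB4 had 6.10 and 5.29 CPM. COL5A2 and COL11A1, chains of minor fibrils, had means of 33.3 and 25.1 CPM with wide ranges, COL5A2 from 5.75 CPM in the third KIF3B knockout to 74.9 CPM in the first WA09 control.

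Members have long transcripts, with a median of 6346 bases for the longest transcript against 3586 over all genes tested. In KIF3B knockouts, log2 fold changes over all genes rank-correlated with that length (0.354 over 14196 genes, which share libraries and are not replicates). With each library's trend against length removed, the median of the 61 members was 0.20 in place of 0.41, that of the laminins 0.46, with 9 of 10 higher, and that of all genes 0.01. Without the second KIF3B knockout library, the median was 0.13 for all members, 0.07 for collagens and -0.08 for integrins, and 0.76 for the laminins, of which 10 of 10 had higher fitted levels.

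**Figure D4:**
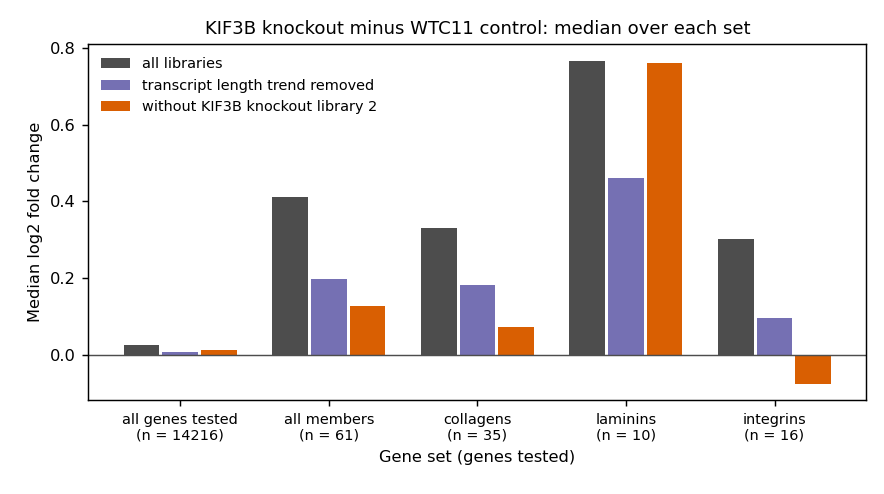
Median log2 fold change of KIF3B knockout over WTC11 control for all genes tested and for each gene family, with bars for all libraries, for the fit with the length trend removed and for the fit without the second KIF3B knockout library. The laminin median is 0.77, 0.46 and 0.76 in these fits, while the integrin median goes from 0.30 to -0.08 without that library.

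The second comparison set the KIF3A knockout library beside the WA09 controls. Here most members were lower: 38 of the 61 had lower and 22 higher fitted levels, with a median log2 fold change of -0.24 against -0.02 over all genes. None was called by edgeR (0.0% of all genes), by DESeq2 (0.00703% of all genes), by limma voom (0.0% of all genes) or with no low-count filter (0.00758% of all genes), and 4 had an unadjusted p under 0.05, all lower, beside 2.17% of all genes. The knockout library lay below both controls for 27 members, where 33.0% of all genes did, and above both for 16, where 33.8% did. With 1 library the fit assumes that it varies like the libraries of other groups.

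The beta laminin chains and LAMA1 were above both WA09 controls, with log2 fold changes of 0.39 ± 0.35 for LAMB1, 0.49 ± 0.29 for LAMB2 and 0.50 ± 0.30 for LAMA1. LAMC1 had -0.72 ± 0.35, COL4A1 -0.55 ± 0.25, COL4A2 -0.56 ± 0.30 and ITGA6 -0.44 ± 0.22. Without the first WA09 control LAMC1 had -0.26 and COL4A2 -0.24, and without the second they had -1.08 and -0.82. ITGAV and LAMA5 were level with their controls, at -0.02 ± 0.64 and -0.02 ± 0.49, with errors wide enough to hold sizeable changes. Besides COL4A1, the genes with an unadjusted p under 0.05 were of low level, and they were chosen after their values were seen. COL21A1 measured 15.3 and 21.1 CPM in WA09 controls and 1.32 CPM in their KIF3A knockout. LAMA2, the alpha chain of muscle laminin, measured 9.42 and 13.3 CPM against 1.32 CPM. COL16A1 measured 10.2 and 10.7 CPM against 0 counts, which is 7.91-fold below the mean of the controls when the knockout is set at 3 counts. These libraries hold few reads of the 3 genes, so that counting error is large.

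**Figure D5:**
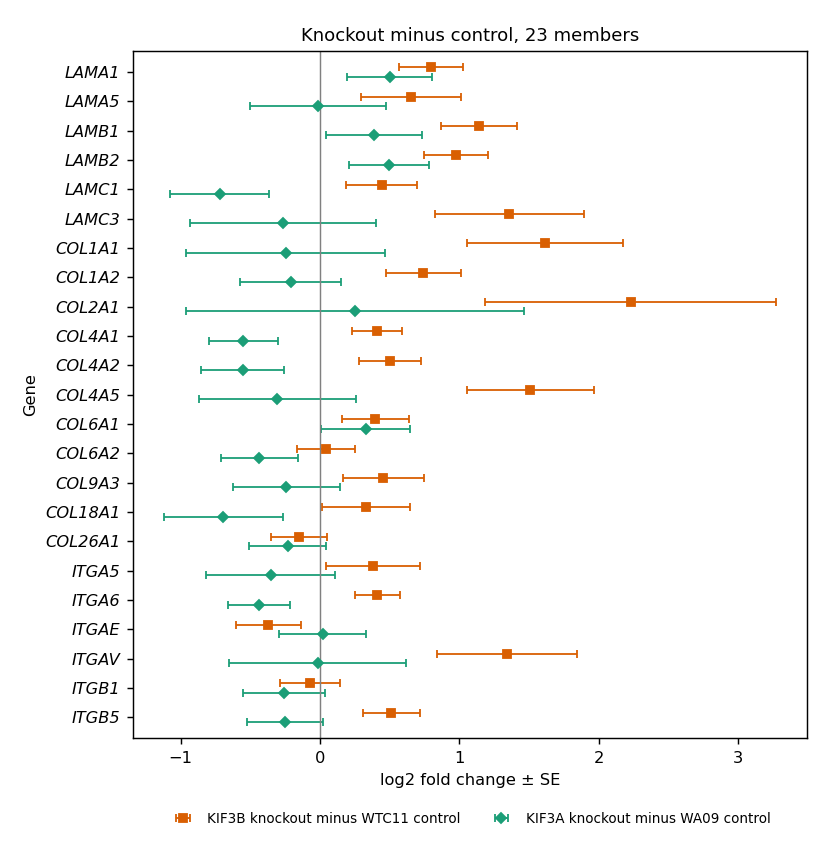
Log2 fold change with its SE for 23 members, for KIF3B knockout over WTC11 control (squares) and KIF3A knockout over WA09 control (diamonds). LAMA1, LAMB1, LAMB2 and COL6A1 lie right of 0 in both comparisons, whereas LAMC1, COL4A1, COL4A2 and ITGA6 lie right of 0 for KIF3B and left of 0 for KIF3A.

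The third comparison tested the difference between these effects, KIF3A minus KIF3B, which holds the knocked-out gene and the cell line together and cannot tell them apart. Of the 61 members, 47 had a lower value for KIF3A, among them all 10 laminins, and the median difference was -0.74 against -0.04 over all genes. By edgeR 0 were called (0.0% of all genes), by DESeq2 0 (0.12% of all genes), by limma voom 0 (0.0% of all genes) and with no low-count filter 3, LAMC1 and ITGB5 among them (0.606% of all genes). Members with an unadjusted p under 0.05 numbered 8 lower and 2 higher, where all genes gave 5.85% and 3.45%. The difference was -1.16 ± 0.44 for LAMC1, -1.06 ± 0.37 for COL4A2, -0.96 ± 0.31 for COL4A1, -0.85 ± 0.27 for ITGA6 and -1.81 ± 0.74 for COL4A5, with edgeR adjusted p of 0.51 to 0.52. Without the first WA09 control that of LAMC1 was -0.71. For LAMB1, LAMB2 and LAMA1 it was -0.75 ± 0.44, -0.48 ± 0.37 and -0.29 ± 0.38. Without the second KIF3B knockout library the median was -0.56.

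Library by library, 7 members lay above both controls in all KIF3B knockouts and below both controls in the KIF3A knockout: COL1A2, COL4A1, COL4A2, COL4A5, ITGA6, LAMA2 and LAMC1. They were 11.5% of the 61, where 5.66% of all genes had that pattern. COL6A1, LAMA1, LAMB1 and LAMB2 lay above in both lines (6.56%, where 5.13% of all genes did). No member had the reverse of the first pattern, which 7.39% of all genes had.

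With both knockouts pooled and the line as a term, 34 of 56 members tested had higher fitted levels, with a median log2 fold change of 0.10 against 0.01 over all 13238 genes. By edgeR 0 were called (0.0% of all genes), by limma voom 0 (0.0% of all genes), by DESeq2 1, LAMB2 (0.279% of all genes), and with no low-count filter 2, LAMB1 and LAMB2 (0.584% of all genes). Of the laminins 8 of 10 were higher, with a median of 0.56, but 7 of 10 with a median of 0.35 once the length trend was removed and 6 of 10 with a median of 0.27 without the second KIF3B knockout library. LAMB1 had 0.88 ± 0.24, LAMB2 0.80 ± 0.19 and LAMA1 0.69 ± 0.19 (edgeR adjusted p = 0.53 for each), and these 3 were the members with an unadjusted p under 0.05, all higher, where 5.47% of all genes were so and higher and 3.12% lower. Both LAMB genes and LAMA1 were higher in 4 of 4 knockout libraries than in the controls of their line. The median over members was -0.02 with the length trend removed and -0.07 without the second KIF3B knockout library. This comparison shares its control libraries with those above.

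The last comparison set WTC11 controls against WA09 controls, which are the same libraries as above. Members were mostly lower in WTC11, 41 of 61, with a median log2 difference of -0.30 against -0.01 over all genes. Of the laminins 8 of 10 were lower, with a median of -0.57. The collagens had 24 of 35 lower (median -0.44) and the integrins 9 of 16 (median -0.07). The WTC11 controls also serve in the KIF3B comparison, so the 2 sets of values are not independent. By edgeR 0 members were called (0.0281% of all genes), by limma voom 0 (0.0% of all genes), by DESeq2 1, COL23A1 (1.54% of all genes), and with no low-count filter 4, COL23A1, COL12A1 and COL4A5 among them (1.99% of all genes). At an unadjusted p under 0.05, 7 were lower in WTC11 and 1 higher, where all genes gave 7.18% and 7.80%. Both WTC11 controls lay below both WA09 controls for 21 members and above for 4, where 23.6% of all genes did each.

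Comparing all 5 WTC11 with all 3 WA09 libraries, 5 members were lower in every WTC11 library (7.91% of all genes were) and 2 higher (7.24%). COL23A1, a collagen that spans the cell membrane, measured 13.3 and 16.3 CPM in the WTC11 controls, 17.6, 30.4 and 6.83 CPM in the KIF3B knockouts, 54.9 and 56.6 CPM in WA09 controls and 33.5 CPM in their KIF3A knockout. Its log2 difference between the controls was -1.91 ± 0.57, with an adjusted p of 0.19 by edgeR and 0.047 by DESeq2. The other 3 transmembrane collagens were lower in WTC11 controls too, and the 4 together summed to 21.1 and 23.1 CPM in WTC11 controls against 74.6 and 92.1 CPM in WA09 controls. COL12A1, a fibril-associated collagen of tendon and skin, had 2.16 to 30.4 CPM in WTC11 libraries and 0 counts in all 3 WA09 libraries. With 3 counts per library as the limit, its WTC11 mean was 8.45-fold above that limit. The second KIF3B knockout held 70 of its counts and the other WTC11 libraries 6 to 23 each. ITGAL, the alpha subunit of a leukocyte receptor, had 0 counts in all 5 WTC11 libraries. It had 7, 2 and 17 counts in WA09 (2.75, 0.740 and 7.498 CPM). Its WA09 mean was 2.92-fold above the limit of 1.25 CPM, but the second WA09 control lay below that limit. Counting error of the higher group is not part of these folds. COL12A1, COL23A1 and ITGAL were picked out after their values were seen. COL6A2, COL9A1 and COL13A1 were the other members lower in every WTC11 library, and ITGA6 the other one higher.

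Partners of these proteins were followed in 5 further gene lists. None of their members was called by edgeR in either knockout comparison. Enzymes and chaperones of collagen synthesis had 22 of 30 members higher in KIF3B knockouts, with a median of 0.26, and 12 of 30 in the KIF3A knockout, with -0.09. Their most abundant members were near level: SERPINH1, the collagen chaperone, at 379 and 413 CPM in WTC11 controls and 361, 339 and 369 CPM in KIF3B knockouts, and P4HB, a subunit of prolyl hydroxylase, at 305 and 327 CPM and 332, 341 and 337 CPM. Other basement membrane and matrix glycoproteins had 27 of 38 higher in KIF3B knockouts (median 0.26) and 15 of 38 in the KIF3A knockout (median -0.13). VCAN, a large proteoglycan, led them at 514 and 644 CPM in WTC11 controls and 573, 856 and 861 CPM in KIF3B knockouts, followed by SPARC, a collagen-binding glycoprotein, at 431 and 492 CPM and 456, 675 and 423 CPM.

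Proteins that couple integrins to actin had 25 of 36 higher in KIF3B knockouts (median 0.40, and 0.24 without the second knockout library) and 13 of 36 in the KIF3A knockout (median -0.12). FLNA, an actin crosslinker, measured 558 and 577 CPM in the WTC11 controls, 767, 1311 and 999 CPM in the KIF3B knockouts, 698 and 465 CPM in WA09 controls and 540 CPM in their KIF3A knockout. VCL, which binds talin at adhesions, measured 502 and 567 CPM, then 628, 1151 and 692 CPM, then 664 and 543 CPM, and 542 CPM in the same order. In both genes every KIF3B knockout exceeded its controls and the second exceeded all libraries. Matrix receptors other than integrins had 15 of 19 higher in KIF3B knockouts (median 0.33, and 0.13 without the second knockout library) and 9 of 19 in the KIF3A knockout (median -0.06), with GPC4 and SDC2 the most abundant. Targets of YAP and TAZ, which respond to adhesion and tension, had 19 of 23 higher in KIF3B knockouts, with a median of 1.00 that was 0.61 without the second library, and 11 of 23 in the KIF3A knockout (median -0.03). CTGF measured 137 and 175 CPM in WTC11 controls and 165, 347 and 181 CPM in KIF3B knockouts, and CYR61 99.0 and 77.5 CPM against 133, 294 and 136 CPM. With the length trend removed, the medians in KIF3B knockouts were 0.19 for collagen synthesis and 0.10 for matrix glycoproteins. They were 0.22 for proteins coupling integrins to actin, 0.19 for other matrix receptors and 0.80 for YAP and TAZ targets.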

How the data were processed

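The authors deposited 1 table of raw counts, reads per gene as whole numbers, for 8 libraries. Per the submitters' processing notes, STAR and hg38 were used, while for the gene counter, annotation, strand setting and treatment of duplicate reads the sources used here give nothing. Without strand, reads of overlapping genes on opposite strands cannot be told apart. Entries with a gene identifier but no symbol held 0.446% to 0.673% of a library's counts and were kept. The 3 counts that a count of 0 allows equal 1.04 to 1.39 CPM, for counting error only. Positions and lengths came from GENCODE release 29.

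Counts were tested with edgeR 4.0.16 in R 4.3.3 (quasi-likelihood F test, robust, TMM, filterByExpr, Benjamini-Hochberg adjustment over all genes tested, threshold 0.05). The fit was also run on simulated counts with known changes. Those had no length trend and no outlying library, so they cannot show how the fit performs on these libraries. CPM use TMM-scaled totals. Each SE is the size of the log2 fold change divided by the square root of its F statistic. It was thus derived from the test, and is rough where a group is at or near 0 counts. A fit with 1 mean per group gave 4 comparisons over 14216 genes, and a fit with line as a term gave the pooled comparison over 13238 genes. Alternatives were DESeq2 1.42.0 (test and size factors), limma voom 3.58.1, no low-count filter, removal of the length trend, detected genes as a covariate, the guide number as a block, and each library left out.

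Members given in every library were those called in any comparison, those averaging 50 CPM or more, and those averaging 10 CPM or more whose KIF3B and control libraries did not overlap with a log2 fold change of at least 1 in size, up to 30 in all. Others are examples of highest mean in their class or, where so stated, were chosen after their values were seen. Members and lists were chosen with earlier results of these data known. Values of 1 member are not reported here.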

Additional observations from a re-analysis of the deposited data

How the results depend on the processing

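Called members differed by method. In KIF3B knockouts they numbered 0 by edgeR, 2 by DESeq2 and 8 with no low-count filter, in the difference between the effects 0 and 3 with no filter, between the control lines 0, 1 by DESeq2 and 4 with no filter, and in the pooled comparison 0, 1 and 2. The number called was 0 in each fit that left out 1 library. The median over members in KIF3B knockouts (0.41) was 0.20 with the length trend removed and 0.62 with the number of detected genes as covariate, and it ran from 0.13 (without KIF3B knockout 2) to 0.69 (without WTC11 control 2) when single libraries were left out. In the KIF3A comparison that range was -0.29 to -0.17. The difference between the effects (-0.74) was -0.50 and -1.03 in those 2 fits, with a range of -1.06 to -0.56. The line difference (-0.30) was -0.48 by limma voom and -0.68 with detected genes, with a range of -0.64 (without WTC11 control 2) to -0.15 (without WTC11 control 1). The pooled median (0.10) was -0.024 with the length trend removed and ran from -0.065 (without KIF3B knockout 2) to 0.41 (without the KIF3A knockout), also turning to -0.060 without WTC11 control 1. The cause was not tested.

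Of 676 alternatives to 46 values of named members, 668 kept their direction. Many of these fits left out a library outside the comparison, or a single library of groups that did not overlap. Such fits can hardly turn a direction, so the count does not measure stability. In KIF3B knockouts ITGB1 turned to 0.39 with detected genes as a covariate and ran from -0.35 to 0.086 without single libraries, COL26A1 ran from -0.30 to 0.020, and COL6A2 turned to -0.041 without the length trend and ran from -0.15 to 0.27. Deviations of KIF3B knockout and WTC11 control under the same guide correlated at 0.107, -0.110 and -0.016. The deviations of the WTC11 controls from their mean mirror each other, so against the other guide's control each value only changed its sign. These correlations are thus not independent and cannot decide whether the guide number pairs the libraries. With the guide number as a replicate block, 0 members were called in every comparison, the KIF3B median was 0.45 and the line difference -0.49. Depth limits the members under about 10 CPM, where a library holds few reads.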

Other observations

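Ratios between members within a library need no scaling between libraries. Of 8 ratios computed, 4 did not overlap between KIF3B knockouts and WTC11 controls: COL4A5 to COL4A6, given above, and COL1A1 to COL1A2, ITGB5 to ITGB1 and LAMB1 to LAMC1, all chosen after values were seen. For levels of single genes, 16.5% of all genes lay above and 18.0% below in this comparison. No such share was computed for ratios, and some of the pairs share LAMB1. The ratio of COL1A1 to COL1A2 counts was 0.178 and 0.158 in the WTC11 controls, 0.225, 0.398 and 0.214 in the KIF3B knockouts and 0.228 to 0.330 in WA09 libraries. ITGB5 and ITGB1 encode the beta subunits of vitronectin and of most other matrix receptors. The ratio of ITGB5 to ITGB1 counts was 1.78, 1.46 and 1.57 in the KIF3B knockouts, against 0.961 and 1.14 in the WTC11 controls, 1.09 and 1.22 in the WA09 controls and 1.15 in the KIF3A knockout. All 3 KIF3B knockouts thus lay above the other 5 libraries, the second of them included at the low end of its group. The ratio of LAMB1 to LAMC1 counts, a beta and the shared gamma laminin chain, was 0.312 and 0.322 in the WTC11 controls, 0.453, 0.498 and 0.581 in the KIF3B knockouts, 0.325 and 0.518 in the WA09 controls and 0.853 in the KIF3A knockout. In each line the knockouts lay above the controls.

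DAG1, a laminin receptor that is not an integrin, measured 75.2 and 73.9 CPM in the WTC11 controls, 136, 124 and 137 CPM in the KIF3B knockouts, 93.4 and 62.9 CPM in WA09 controls and 83.4 CPM in their KIF3A knockout. Its second KIF3B knockout library was the lowest of the 3, and the gene was chosen after its values were seen. NID1, which bridges laminin and type IV collagen, measured 28.0 and 29.5 CPM in the WTC11 controls and 47.0, 163 and 50.7 CPM in the KIF3B knockouts, with the second library far above the others. It measured 74.95 and 34.4 CPM in WA09 controls and 41.9 CPM in their KIF3A knockout, and was also chosen after its values were seen.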
